A study of Mus musculus with 4 samples.

Results

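The accessible chromatin of the NF-kB family and its inhibitors was read from the ATAC-seq libraries of regulatory T (Treg) cells, at the genes Rel, Rela, Relb, Nfkb1, Nfkb2, Nfkbia, Nfkbid and Tnfaip3. A region was assigned to a gene when it overlapped the gene body or the 20 kb on either side of it, and called peaks that overlapped by at least 1 bp were merged across the libraries. The 8 genes held 75 of the 271773 merged regions on the assembled chromosomes (GRCm38/mm10). All mice were naive females on the C57BL/6 background, 6 to 8 weeks old, that carried the Foxp3 Rfp/Rfp reporter, and 50000 RFP-positive cells from lymph nodes (LNs) were sorted for each library. The WT group and the Il2ramut/mut group had 2 libraries each. Il2ramut/mut mice carry a point mutation in the alpha chain of the IL-2 receptor (CD25) that lowers surface CD25 and the IL-2 signals a Treg cell receives. The mutation arose in a Ccr2-/- colony and was bred onto Ccr2+/+ mice. The comparison asks whether open chromatin at these genes differs in Treg cells with weakened IL-2 signals. The methods of the study call the libraries of a group biological replicates, and the sources used here do not say whether each came from a separate mouse or a pool, so every test below measures the spread between libraries only.

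NF-kB transcription factors are dimers of proteins that share the Rel homology domain. RelA, c-Rel (Rel) and RelB carry a transactivation domain, whereas Nfkb1 and Nfkb2 encode the precursors p105 and p100, which are processed to the DNA-binding subunits p50 and p52. Inhibitors of the IkB family such as IkBa (Nfkbia) hold the dimers in the cytoplasm, the nuclear protein IkBNS (Nfkbid) modulates p50-containing dimers on DNA, and the ubiquitin-editing enzyme A20 (Tnfaip3) shuts off signals upstream of the IkB kinases. In Treg cells, c-Rel is known for its part in switching on Foxp3 during development in the thymus. Several of these genes are themselves known targets of NF-kB, which binds the kB consensus, a sequence of 10 bases.

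The summit is the base of a peak with the most reads. Sequences at 7 summits are shown because they carry the motif matches that set these loci apart in the counts further on, or because their values differed most between the genotypes. Of the start-site regions shown, those of Rel, Nfkbia and Tnfaip3 held the kB consensus within 150 bases of the summit. That of Relb held a STAT word, TTCNNNGAA. Matches at the starts of Nfkb1 and Nfkb2 are given further on. The distal regions are the one 2.6 kb upstream of Nfkbia, the one 11.4 kb from the start of Rela and an intron 12 region of Nfkb1. The windows are chr11:23771034-23771333 (Rel), chr12:55491824-55492123 (Nfkbia, intron 1), chr10:19015411-19015545 (Tnfaip3, just upstream of its start), chr7:19628570-19628869 (Relb, intron 1), chr12:55495091-55495390 (Nfkbia upstream), chr19:5648768-5649067 (Rela downstream) and chr3:135610283-135610582 (Nfkb1 intron 12). They were read from the RefSeq genome (GRCm38.p6) on the strand of the gene, which is minus except for Rela, with bases of UTRs left out. Capitals mark matches to the kB consensus or to TTCNNNGAA on either strand.
Rel start: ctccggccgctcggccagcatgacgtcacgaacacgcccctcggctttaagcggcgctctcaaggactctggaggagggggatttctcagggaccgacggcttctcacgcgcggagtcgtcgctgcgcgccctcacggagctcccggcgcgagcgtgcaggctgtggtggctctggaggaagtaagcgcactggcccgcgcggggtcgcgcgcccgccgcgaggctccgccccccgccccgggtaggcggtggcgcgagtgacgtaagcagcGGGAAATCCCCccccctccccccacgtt
Nfkbia start: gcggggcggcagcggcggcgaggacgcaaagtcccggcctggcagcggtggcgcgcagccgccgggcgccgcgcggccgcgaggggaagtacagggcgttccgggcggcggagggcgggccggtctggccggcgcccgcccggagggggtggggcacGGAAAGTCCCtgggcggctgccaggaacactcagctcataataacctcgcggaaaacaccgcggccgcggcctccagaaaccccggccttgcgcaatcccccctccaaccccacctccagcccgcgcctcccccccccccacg
Tnfaip3 start: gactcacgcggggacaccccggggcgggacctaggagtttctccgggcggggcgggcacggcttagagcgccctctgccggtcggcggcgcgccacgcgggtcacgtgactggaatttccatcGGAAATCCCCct
Relb start: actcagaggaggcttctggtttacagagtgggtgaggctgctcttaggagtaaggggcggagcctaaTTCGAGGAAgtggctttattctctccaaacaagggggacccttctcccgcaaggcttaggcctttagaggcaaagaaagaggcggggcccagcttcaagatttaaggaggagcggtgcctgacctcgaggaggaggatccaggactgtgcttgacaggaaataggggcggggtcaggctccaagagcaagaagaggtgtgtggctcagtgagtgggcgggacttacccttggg
Nfkbia upstream: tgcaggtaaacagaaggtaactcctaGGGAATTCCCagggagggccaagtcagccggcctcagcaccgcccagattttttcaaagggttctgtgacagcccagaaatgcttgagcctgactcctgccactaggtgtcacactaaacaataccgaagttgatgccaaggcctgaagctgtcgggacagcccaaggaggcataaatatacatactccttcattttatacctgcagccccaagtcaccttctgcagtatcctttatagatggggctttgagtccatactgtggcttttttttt
Rela downstream: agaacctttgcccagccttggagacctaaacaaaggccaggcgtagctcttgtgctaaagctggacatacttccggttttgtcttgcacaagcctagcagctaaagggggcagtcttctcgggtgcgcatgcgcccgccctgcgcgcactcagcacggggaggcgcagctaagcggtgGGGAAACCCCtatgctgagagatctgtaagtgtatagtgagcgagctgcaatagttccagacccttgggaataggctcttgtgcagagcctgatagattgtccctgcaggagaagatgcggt
Nfkb1 intron 12: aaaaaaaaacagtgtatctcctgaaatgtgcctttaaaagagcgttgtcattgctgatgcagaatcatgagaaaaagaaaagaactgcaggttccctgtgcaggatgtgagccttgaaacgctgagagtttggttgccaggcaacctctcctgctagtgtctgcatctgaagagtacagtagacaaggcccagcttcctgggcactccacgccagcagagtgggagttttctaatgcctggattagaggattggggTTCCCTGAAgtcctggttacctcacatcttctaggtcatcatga

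The deposited lists held 112569 to 142732 peaks per library. They give no read totals, so the sequencing depth is unknown. In 100% of the peaks the fold enrichment at the summit corresponded to a whole number of reads over one background level per library. In this ratio 1 was added to both the reads and the background. The background ranged from 0.974 to 1.23 reads, and the median peak held 8 to 10 reads. The promoters of 10 of 10 Treg and CD4 T cell marker genes were called in all 4 libraries, against 0 of 5 for B cells, 0 of 2 for NK cells and 1 of 2 for CD8 T cells, in which Cd8a had no peak. Of 5 myeloid markers none was called in all 4 libraries and Cd14 was called in 2, whereas 2 of 4 stromal and endothelial marker promoters were called in all 4. Fold enrichments of the 38281 regions called in every library correlated between libraries with Spearman's rho of 0.87 to 0.90. WT replicate 1 gave the lowest of the 4 values at 44.8% of these regions and WT replicate 2 the highest at 55.1%, a spread within one genotype that recurs at the genes described here.

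All of the 8 genes had a called peak over a start site in each library, as did 49.5% of 21938 protein-coding genes. Of their 75 regions, 38 were called in all 4 libraries, 14 in 3, 10 in 2 and 13 in 1. Genome-wide, 14.1% of merged regions were called in all 4 libraries and 78.8% of those over a start site. Nfkb1, the longest of the genes, held 23 regions, 11 of them in all 4 libraries. Nfkbid held 13 (5 in all 4), Nfkbia 9 (5), Tnfaip3 8 (3), Nfkb2 7 (3), Rela 6 (5), Rel 5 (4) and Relb 4 (2). The single libraries called 47 and 67 of the regions in WT and 53 and 60 in Il2ramut/mut, so that the WT libraries were the lowest and the highest. In a pool of sorted cells, fewer cells with a region open and a less open region in each cell cannot be told apart. Some regions lay over the start sites of neighbours, namely Fbxl15 and Psd near Nfkb2, Hcst and Aplp1 near Nfkbid, Sipa1 near Rela and Clasrp near Relb, and are counted with the gene whose window they fall in.

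**Figure D1:**
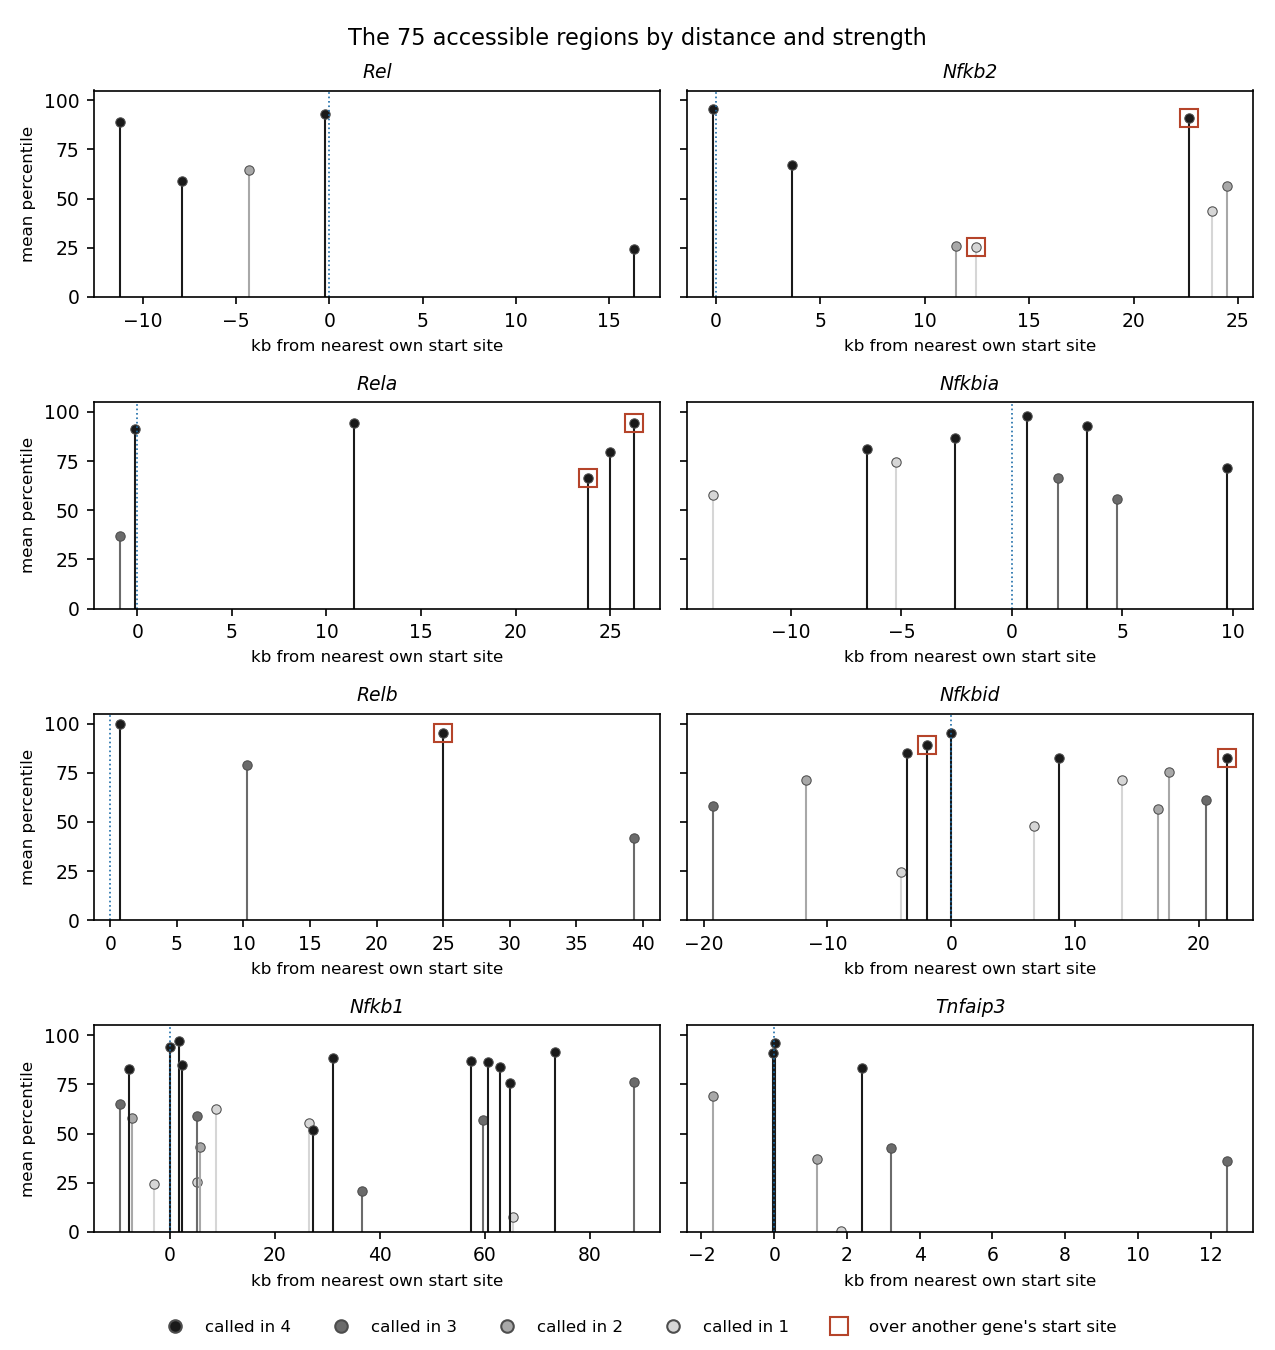
The 75 regions by distance from the nearest annotated start site of their gene (x axis, kb, positive downstream of that start). A start may lie inside the gene, so some regions in introns have negative distances. The y axis gives the mean of their percentiles over the libraries that called them. Shading gives the number of libraries with a called peak and red squares mark regions over the start site of a neighbouring gene. The regions at distance 0 reach over 90 at each of the 8 genes, and Nfkb1 has strong regions out to 73.3 kb.

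Values below are given in the order WT replicate 1, WT replicate 2, Il2ramut/mut replicate 1 and Il2ramut/mut replicate 2. Fold enrichment is the authors' ratio of reads at the summit to the background, with 1 added to both. The percentile of a peak is the share of peaks in its own library with a −log10 p at or below its own, with ties at their middle rank.

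The start of Relb, whose product forms the noncanonical dimer with p52, had the strongest signal of the family. Its region (chr7:19627932-19629917) covers the first exon and reaches into intron 1, and its fold enrichment was 75.5, 99.0, 83.9 and 78.2. The percentiles were 99.8, 99.7, 99.8 and 99.7, above 96.0% to 97.7% of the 11037 start-site regions called in all 4 libraries. The WT libraries were the lowest and the highest, with both Il2ramut/mut libraries between them. On the log2 scale the difference, Il2ramut/mut minus WT, was -0.08 ± 0.10 (SE; limma, adjusted p = 0.824).

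The start of Rel (chr11:23769568-23772241) was, at 2674 bp, as wide as or wider than 98.7% of start-site regions. Its fold enrichment was 15.2, 19.7, 23.3 and 21.4, from 29, 38, 51 and 43 reads at the summit. Both Il2ramut/mut libraries lay above both WT libraries in fold enrichment, in percentile (91.5, 91.6, 94.6 and 94.7) and in percentile after the lists were trimmed to equal length. The difference of 0.42 ± 0.17 on the log2 scale did not pass adjustment over all regions (limma, adjusted p = 0.583). In the other fits of fold enrichment it was between 0.35 and 0.51, with 1 exception. Without WT replicate 2 the merged region fell into 2 pieces, with differences of 0.35 and 0.03. A fit of log2 −log10 p in place of log2 fold enrichment gave 0.56, on that other scale. The adjusted p was at least 0.50 in the fits that kept all 4 libraries (limma).

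At Rela, the ubiquitously expressed activating subunit, the start-site region (chr19:5636809-5638161) had fold enrichments of 12.7, 19.2, 15.3 and 20.4. The groups overlapped, with the lower value of each genotype in replicate 1. The difference was 0.24 ± 0.21 (limma, adjusted p = 0.752).

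The precursor genes were open to a similar degree. The Nfkb1 start (chr3:135690661-135691826) had fold enrichments of 17.7, 26.3, 21.5 and 24.3, and the Nfkb2 start (chr19:46304080-46306049) had 22.3, 35.4, 24.7 and 28.7. At both, the Il2ramut/mut values lay between those of the WT libraries. The differences were 0.12 ± 0.16 at Nfkb1 and -0.05 ± 0.15 at Nfkb2 (limma, adjusted p = 0.835 and 0.934).

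Among the inhibitors, the start of Nfkbia (chr12:55491023-55493059) came next to Relb with fold enrichments of 33.9, 51.0, 39.9 and 41.3. The region of Nfkbid (chr7:30421178-30423624) had 24.3, 28.3, 24.7 and 23.8 and was as wide as or wider than 98.0% of start-site regions. Tnfaip3 had a region at each of its annotated starts. The first (chr10:19014140-19016036) had 22.3, 39.9, 30.5 and 27.2, and the other, further into the gene (chr10:19011512-19012934), had 11.1, 25.3, 17.0 and 12.6. The highest of these values was in WT replicate 2 at each of the 4 regions. The differences between the genotypes were -0.02 ± 0.12, -0.08 ± 0.17, -0.02 ± 0.17 and -0.11 ± 0.29 in this order (limma, adjusted p = 0.962, 0.897, 0.981 and 0.923).

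Taking the 9 start-site regions as a group, WT replicate 1 was lowest at 8 and WT replicate 2 highest at 7. Both Il2ramut/mut values fell inside the WT range at 6 of the 9, and at 29.1% of the 38281 regions called in all libraries. The share among all start-site regions was not counted, so the 6 of 9 have no like background here. By mean percentile the order was Relb, Nfkbia, Tnfaip3 (first start), Nfkb2, Nfkbid, Nfkb1, Rel, Rela and the other start of Tnfaip3. Relb stood above Nfkbia by more than the gap between libraries of one genotype, and each later pair of neighbours differed by less than the largest such gap at either region.

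**Figure D2:**
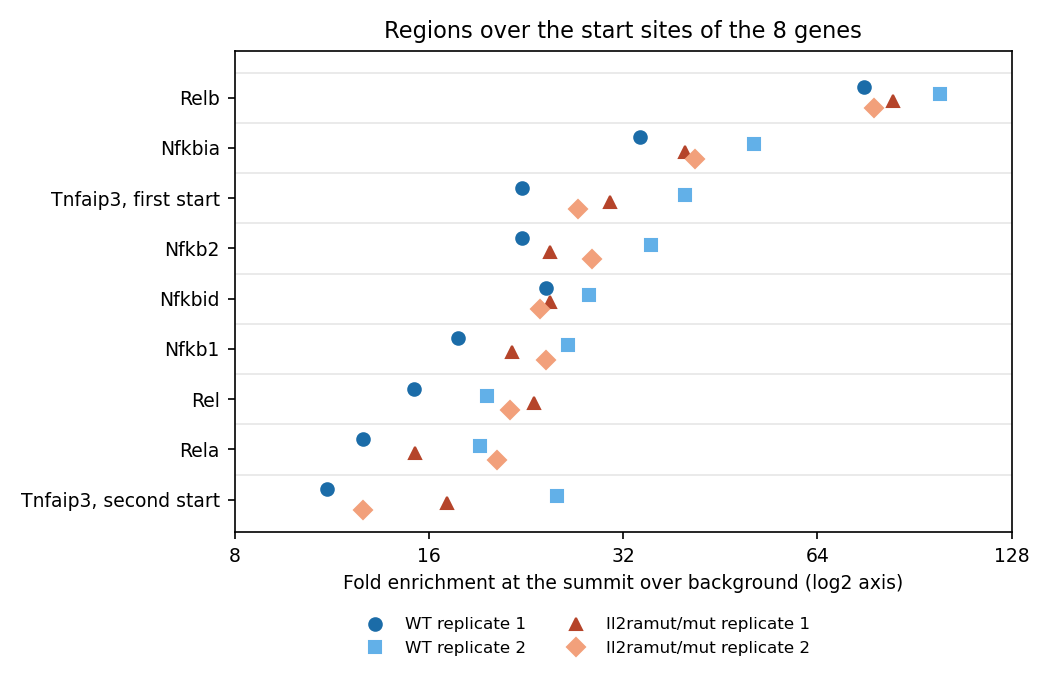
Fold enrichment at the summit (x axis, log2 scale) of the regions over annotated start sites, one row per region and one symbol per library. WT replicates 1 and 2 (circles and squares) enclose both Il2ramut/mut libraries at 6 of the 9 regions, and at Rel both Il2ramut/mut libraries lie above both WT libraries.

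Away from the start sites, the highest percentiles were in an intron of Nfkb1. This region (chr3:135665425-135666437) lay in intron 3 of the longest transcript, 1.79 kb inside an internal start, with fold enrichments of 25.3, 48.0, 39.5 and 34.0 and percentiles of 95.9, 97.8, 97.8 and 97.3. Its level exceeded that of the gene's own start in every library, and the genotypes overlapped (difference 0.09 ± 0.18; limma, adjusted p = 0.898). The other leading region of Nfkb1 (chr3:135593865-135595097) covered exon 18, 73.3 kb downstream of the nearest annotated start, an internal one, with 13.2, 16.7, 17.0 and 19.9. There both Il2ramut/mut libraries lay above both WT libraries by fold enrichment and by percentile, and the difference of 0.40 ± 0.19 did not pass (limma, adjusted p = 0.608).

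Nfkbia was flanked by open chromatin on both sides. A region over exon 6, the last exon (chr12:55488541-55489626), had fold enrichments of 16.2, 20.2, 17.5 and 20.9. The upstream region shown above (chr12:55495000-55495528) had 9.12, 16.7, 11.7 and 7.78, with the WT libraries further apart than the genotype means. At Rela, the leading region not over a start site lay beyond the 3' end of the gene (chr19:5648663-5649358) with 19.2, 24.3, 22.9 and 21.9, higher in every library than the start of Rela itself. Near Rel, both leading regions among those called in all 4 libraries lay upstream, 11.2 kb (chr11:23782000-23782501; 8.11, 20.2, 13.01 and 13.6) and 7.87 kb (chr11:23778689-23779204; 3.55, 7.07, 5.38 and 8.26) from the start. At the farther one WT replicate 2 was more than double WT replicate 1, which exceeds any distance between the genotypes there.

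Away from its start, Nfkbid had a region 3.59 kb upstream in the body of Hcst (chr7:30417937-30418533, with 7.09, 12.6, 8.07 and 12.1). Another lay 8.70 kb downstream of its nearest annotated start (chr7:30431776-30432232, with 8.11, 10.6, 6.28 and 8.75). Tnfaip3 had one in intron 2 (chr10:19009218-19009751; 6.08, 12.1, 8.07 and 9.72), and Nfkb2 one over exon 13 (chr19:46308996-46309449; 4.56, 6.57, 5.38 and 6.32). Relb had no further region in all 4 libraries except the one over the start of Clasrp. In each of these 4 regions WT replicate 2 stood above WT replicate 1, and the genotypes overlapped.

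No NF-kB region passed the test between the genotypes. Of the 38 regions called in all 4 libraries, 0 had an adjusted p of at most 0.05 (limma on quantile-normalised log2 fold enrichment), as did 0 (0%) of the 38281 regions tested. At an unadjusted p under 0.05 there was 1 of 38, the start of Rel (limma, unadjusted p = 0.0479), against 8.55% of all regions. This p rose to 0.0508 with median centring, 0.0539 with stricter peaks, 0.0606 with a replicate block and 0.0621 without the mean-variance trend. That of the Nfkb1 intron 12 region, 0.0502, became 0.00741, 0.0232, 0.0463 and 0.056 in these fits (limma). Without normalisation the unadjusted p was 0.321 at the start of Rel and 0.09535 at the Nfkb1 intron 12 region (limma). With log2 −log10 p in place of log2 fold enrichment it was 0.04745 and 0.0517 (limma). With median centring, and also without normalisation, the fit took each SE from the trend over all regions and not from the region's own libraries. In the main fit the level was higher in Il2ramut/mut at 21 of the 38 and lower at 17. The median difference was 0.11 against 0.00 over all regions, and the median size of a difference was 0.17 against 0.20. The fitted level of all 4 regions in the Rel window was higher in Il2ramut/mut (0.13 to 0.51), and that of both in the Relb window, the start of Relb (-0.08) and that of Clasrp (-0.21), was lower, none past the threshold. These directions did not all hold when a library was left out, since the Rel region 11.2 kb upstream gave -0.27 without WT replicate 1 and the start of Relb 0.01 without Il2ramut/mut replicate 2. With 2 libraries against 2, an exact permutation test of a single region could not give a p below 0.333.

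The 5 regions with the largest differences lay at Nfkb1, Rel, Rela and Nfkbia. The largest was the Nfkb1 intron 12 region shown above (chr3:135610202-135610719), with fold enrichments of 6.08, 15.2, 15.3 and 15.1. By fold enrichment only WT replicate 1 stood low there, whereas by percentile (75.3, 88.9, 91.0 and 92.1) both WT libraries lay below both Il2ramut/mut libraries. The fitted difference was 0.79 ± 0.33 (limma, adjusted p = 0.583), and over the other fits it ranged from 0.34 without WT replicate 1 to 1.22 without WT replicate 2. The upstream Rel region at 7.87 kb came next with 0.51 ± 0.35, followed by an Nfkb1 intron 1 region (chr3:135688879-135690004; 11.7, 10.6, 7.18 and 8.26) with -0.46 ± 0.29. A region over a start of Sipa1 in the Rela window (chr19:5660824-5661744; 4.05, 7.58, 7.63 and 6.32) gave 0.46 ± 0.29. The region downstream of Nfkbia (chr12:55482718-55483124; 6.08, 9.09, 5.38 and 4.86) gave -0.44 ± 0.23 and had both WT libraries above both Il2ramut/mut libraries. The adjusted p of these 4 ranged from 0.616 to 0.695 (limma). Without WT replicate 1 the first 3 of them shrank to 0.08, -0.17 and 0.14, and without WT replicate 2 they grew to 0.88, -0.75 and 0.72. The upstream Rel region also moved to 0.89 without Il2ramut/mut replicate 1 and to 0.17 without Il2ramut/mut replicate 2. The region downstream of Nfkbia ranged from -0.62 to -0.31 over all fits of fold enrichment.

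**Figure D3:**
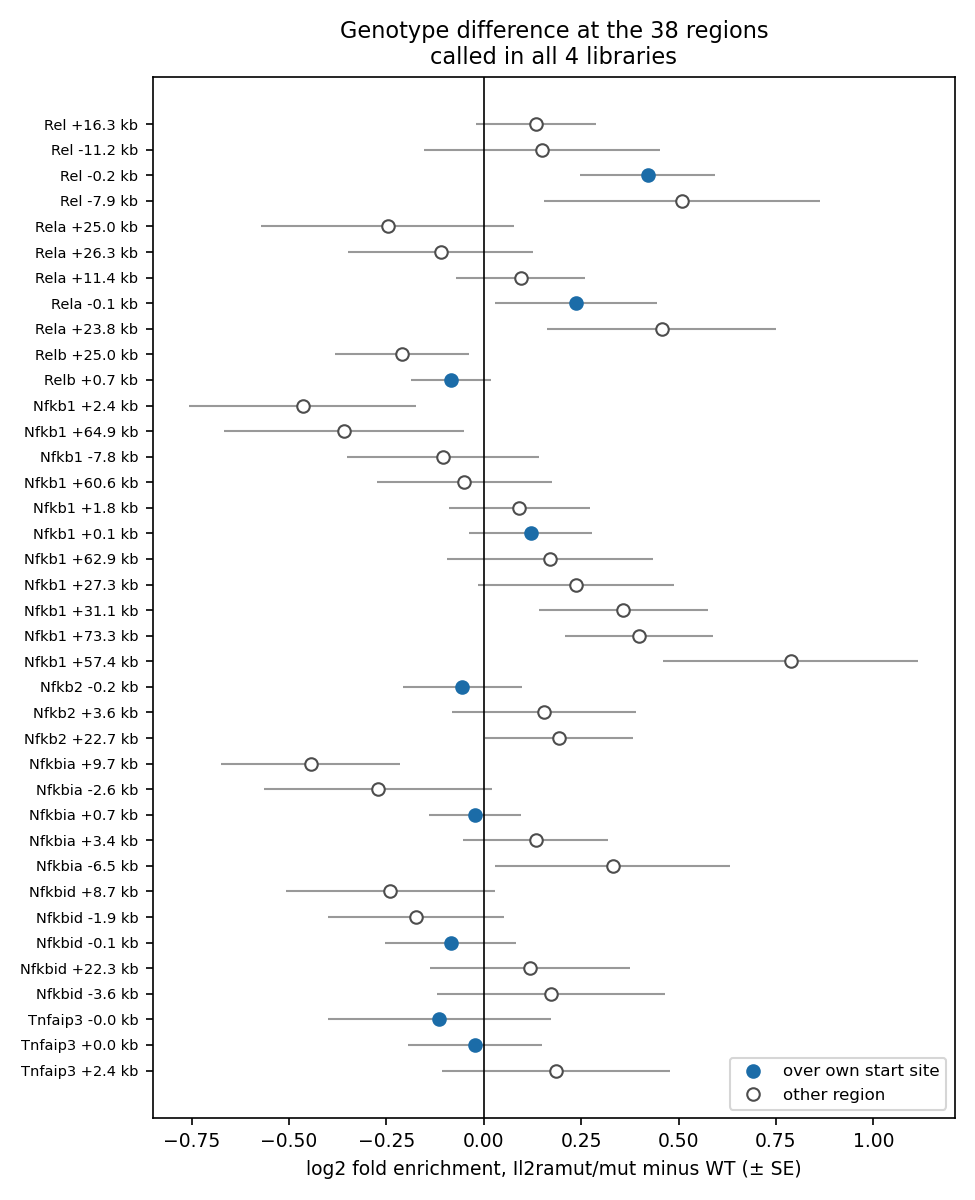
Difference in log2 fold enrichment, Il2ramut/mut minus WT, after quantile normalisation (x axis, bars are the SE of limma). Rows are the 38 regions called in all 4 libraries, labelled by gene and distance from its nearest start site. Filled circles are regions over the gene's own start. The differences scatter on both sides of 0, between -0.46 and 0.79.

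With the complete libraries, counts of regions without overlap between the genotypes were close to the genome's shares or below them. Both Il2ramut/mut percentiles exceeded both WT percentiles at 10 of the 38 regions, against 26.2% of all regions called in every library, and the opposite held at 1 of 38, against 12.6%. The lists differ in length, which shifts percentiles. With lists of equal length the counts were 6 (19.9% genome-wide) and 3 (20.3%), and by fold enrichment 2 (12.2%) and 3 (17.3%). Leaving out any 1 library raised both percentile counts of the complete lists by at least 1.5-fold, and the shares over all regions rose as well. Il2ramut/mut was higher at 15 of 46 regions without WT replicate 1 (36.4% of all regions), at 28 of 39 without WT replicate 2 (46.7%), at 26 of 42 without Il2ramut/mut replicate 1 (49.02%) and at 15 of 40 without Il2ramut/mut replicate 2 (35.7%). In the same order, WT was higher at 12 (29.8%), 4 (22.1%), 4 (23.2%) and 7 (33.6%) regions. The counts with Il2ramut/mut higher thus lay on either side of the genome's shares, depending on the library left out. Those with WT higher lay below the genome's shares whichever library was left out. On all 3 scales with the complete libraries, Rel start and the exon 18 region of Nfkb1 had both Il2ramut/mut values on top and the region downstream of Nfkbia both WT values.

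Reproducible open chromatin regions (OCRs) were then compared, as regions whose peaks in both libraries of a genotype had an irreproducible discovery rate (IDR) of at most 0.05. The windows of the 8 genes held 37 OCRs, of which 29 were common to both genotypes (78.4%, against 71.9% of all OCRs). There were 4 WT-unique OCRs (10.8%, against 14.4%) and 4 Il2ramut/mut-unique OCRs (10.8%, against 13.7%). All start-site regions, and all OCRs at Rel, Nfkb2, Nfkbid and Tnfaip3, were common.

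None of the 8 unique OCRs lacked a peak in the opposite genotype, where 5 were called in both libraries and 3 in a single one. Over the genome, one or both libraries of the opposite genotype held a peak at 93.0% of WT-unique and 96.5% of Il2ramut/mut-unique OCRs. The WT-unique OCRs were the region downstream of Nfkbia, an intron 16 region of Nfkb1 (chr3:135602708-135603248), a region near Sipa1 in the Rela window (chr19:5662296-5662745) and an intron 4 region of Relb (chr7:19618990-19619386). Nfkb1 intron 16 had fold enrichments of 7.09, 9.60, 4.93 and 7.78, so Il2ramut/mut replicate 2 exceeded WT replicate 1. The region near Sipa1 had 7.09, 11.1, 5.38 and 9.23, with the same overlap. Relb intron 4 had 6.08 and 8.08 in WT and 6.80 in Il2ramut/mut replicate 2, and no peak was called in Il2ramut/mut replicate 1.

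The Il2ramut/mut-unique OCRs were the Nfkb1 intron 12 region, the region over a start of Sipa1, an intron 4 region of Nfkb1 (chr3:135662325-135662769) and a region downstream of Nfkb1 (chr3:135579213-135579564). Nfkb1 intron 4 had no peak in WT replicate 1, 4.04 in WT replicate 2 and 5.83 and 6.32 in Il2ramut/mut. The downstream region likewise had no peak in WT replicate 1, but its highest value, 8.08, was in WT replicate 2, against 5.83 and 5.83 in Il2ramut/mut. At all 4 of these OCRs, WT replicate 1 had the lowest value or no peak.

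Few regions were called in both libraries of 1 genotype only. These were a region downstream of Nfkb2 (chr19:46317094-46317642) and an intron 2 region of Tnfaip3 (chr10:19010664-19010968) in WT, 2 of 75 against 2.7% of all regions, and an intron 1 region of Nfkb1 (chr3:135674677-135675210) in Il2ramut/mut, 1 of 75 against 3.56%. They held few reads, 6 and 8, 6 and 10, and 9 and 11 reads at the summit, and none was a reproducible OCR. A peak of 6 reads in WT replicate 1 stood at percentile 7.92.

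**Figure D4:**
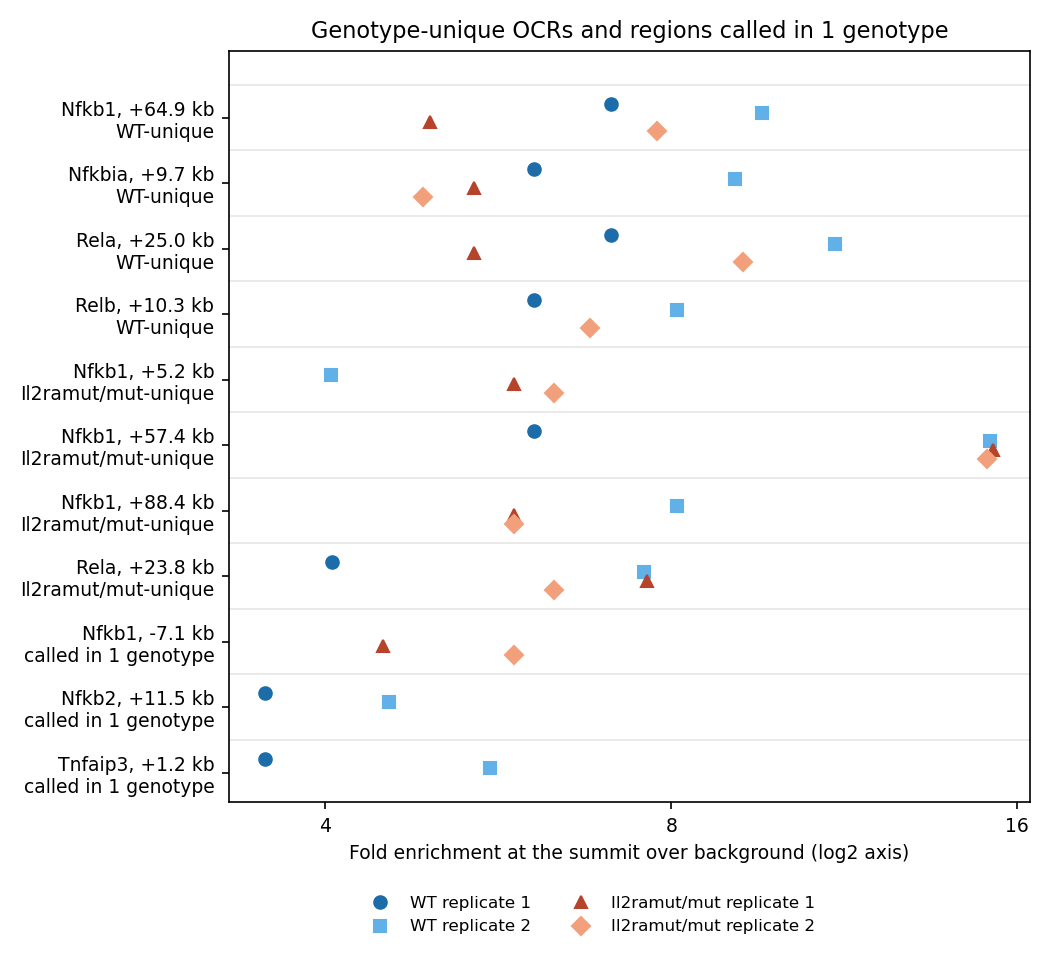
Fold enrichment (x axis, log2 scale) in each library that called a peak. Rows are the 8 genotype-unique OCRs and the 3 regions called in 1 genotype only, labelled by gene and distance from its nearest start. A missing symbol means that no peak was called. At the unique OCRs, symbols of both genotypes are present in each row.

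The kB consensus was more frequent at these genes than elsewhere. Within 150 bases of the summit, on either strand, it matched in 10 of the 38 regions called in all 4 libraries (26.3%), against 6.83% of all such regions, and in 5 of the 9 start-site regions (55.6%) against 7.76% of start-site regions. It occurs in 5.81% of the 32851 RefSeq promoters of 300 bases (GRCm38.p6). The shares are descriptions without a test, since the genes were chosen for their known roles. At the start of Rel, 2 matches overlapped by all but 1 base, as the capitals above show. Nfkb1 held GGGAATTTCC at chr3:135691507-135691516, Nfkb2 held GGGAATTCCC at chr19:46304698-46304707 and GGGGCTTTCC at chr19:46304726-46304735, and Tnfaip3 held GGAAATCCCC at chr10:19015413-19015422, each written on the strand of the gene. The starts of Rela, Relb and Nfkbid and the other start of Tnfaip3 had no match in the window, and matches further from the summit lay within the regions of Relb (GGGGTTTTCC, at both chr7:19628371-19628380 and chr7:19629526-19629535) and Nfkbid (GGGACTTCCC, chr7:30422180-30422189). At Nfkbia, a match 12 bases from the summit (GGAAAGTCCC, chr12:55491957-55491966) was joined by GGAAATTCCC at chr12:55492667-55492676, upstream of the first exon.

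Away from start sites, matches lay 119 bases from the summit in the upstream Nfkbia region (GGGAATTCCC), 33 bases from it in the region downstream of Rela (GGGAAACCCC), and in an intron 6 region of Nfkb1 and both regions over starts of Sipa1. The shares of the other motifs lay closer to those of all regions, above them for STAT and below them for AP-1 and RUNX. TTCNNNGAA matched in 4 of 38 regions (10.5%, against 8.77%), namely the starts of Nfkb2 and Relb and 2 introns of Nfkb1, and so in 2 of the 9 start-site regions (22.2%, against 5.94%). Of these, TTCCCCGAA lay at the summit of Nfkb2 (chr19:46304589-46304597). The Nfkb1 intron 12 region held TTCCCTGAA inside the window shown and TTCTAAGAA 156 bases from the summit. TGANTCA, an AP-1 site, matched in 3 (7.89%, against 10.7%) and TGTGGT, the RUNX core, in 6 (15.8%, against 25.2%). A match describes letters only, and binding was not measured.

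**Figure D5:**
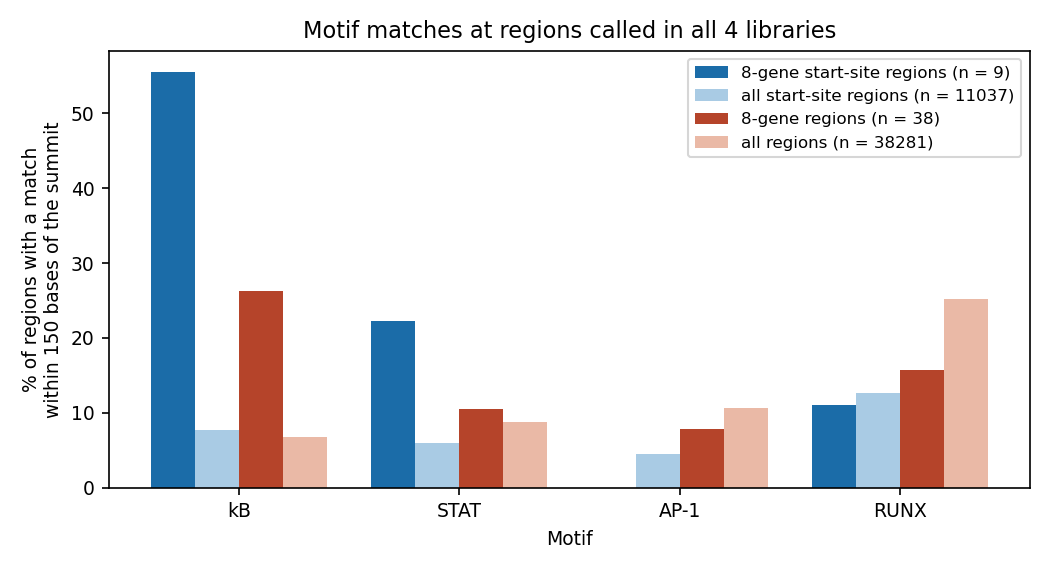
Percentage of regions called in all 4 libraries with a match to each motif within 150 bases of the summit (y axis, from 0), for the start-site regions of the 8 genes, all start-site regions, all regions of the 8 genes and all regions. The kB bars of the 8 genes stand at 55.6% and 26.3%, against 7.76% and 6.83% genome-wide.

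Of 48 other genes of NF-kB signalling, 46 had a start site called in all 4 libraries, against 49.5% of protein-coding genes. Cd40, the receptor of B and myeloid cells, was called in 3 (percentiles 74.5, 83.0 and 81.8, absent from WT replicate 1) and Ltbr, the lymphotoxin receptor of stromal and myeloid cells, in none. By role, all 5 IkB kinase genes and relatives were called in all 4 libraries (percentiles 47.8 to 98.8). So were the 3 subunits of the linear ubiquitin ligase (96.5 to 99.7) and the 5 TRAF adaptors (83.0 to 99.8). The 4 further inhibitors and IkB-like genes, Nfkbib, Nfkbie, Nfkbiz and Bcl3, were also called in all 4 (75.3 to 99.7). In the antigen-receptor arm, Bcl10 stood at 99.8, 99.6, 99.9 and 99.9, while Prkcq, the kinase PKC-theta, was the lowest with 70.7, 43.8, 39.1 and 46.7. The start of the costimulatory receptor Tnfrsf18 (GITR) had percentiles of 86.0, 88.9, 89.1 and 89.3.

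By limma, 0 of 229 regions within 20 kb of these 48 genes passed an adjusted p of 0.05, and 21 (9.17%) had an unadjusted p under 0.05. At the start sites themselves, 52 regions of 46 genes were tested. The fitted level was higher in Il2ramut/mut at 34 and lower at 18, with a median difference of 0.11, against 0.02 over the 11037 start-site regions, of which 53.2% were higher. The unadjusted p was under 0.05 at 8 of the 52 (15.4%), each higher in Il2ramut/mut, and at 7.99% of all start-site regions. These 8, named after their values were seen, were Nfkbie, Bcl3, Ikbkb, Traf3, Bcl10, Otulin, Tnip3 and Tradd, with differences from 0.34 ± 0.12 (Bcl10) to 0.76 ± 0.24 (Tnip3) and adjusted p = 0.582 (limma).

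The genes of this list whose start-site percentiles were nearest to those of Rel over the 4 libraries were N4bp1, Ikbkb, Tbk1, Nfkbie and Tab1, among the 46 compared. The closest, N4bp1, an inhibitor of NF-kB signalling, had percentiles of 91.9, 92.0, 94.8 and 93.3 and a Euclidean distance of 1.54 percentile points. Ikbkb, which encodes the kinase IKK-beta, had 90.4, 92.6, 95.8 and 94.7 at a distance of 1.88. Nfkbie, which encodes the inhibitor IkB-epsilon, had 90.4, 92.4, 94.0 and 96.3 at a distance of 2.21. The likeness is a ranking over 4 libraries and carries no test.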

How the data were processed

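Chromatin accessibility was measured by ATAC-seq, in which a transposase cuts open DNA, in LN Treg cells of 2 WT and 2 Il2ramut/mut libraries. According to their methods, the authors mapped reads to mm10 with BWA mem, removed duplicates and mitochondrial reads, kept concordant pairs, shifted the first reads of pairs for the transposase's cut and ran MACS2 in narrow-peak mode on single libraries. The submitters' processing notes name Trim Galore 0.3.7, BWA 0.7.13, SAMtools 0.1.19, Picard 1.92 and MACS2 2.1.0. The deposited lists give, per peak, a fold enrichment at the summit (a ratio), a −log10 p and a −log10 q. No depth is given, and values were not scaled between libraries by the authors.

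Peaks were merged at an overlap of at least 1 bp, and each region took the strongest peak of each library. Genes and start sites came from the GENCODE basic annotation of GRCm38. Introns and exons were numbered along the transcript with the most exonic bases. Reproducible OCRs were called by IDR (Gaussian copula mixture, ranked by −log10 p, at most 0.05) and counted as common at an overlap of 1 bp. Regions called in all 4 libraries were tested with limma 3.58.1 (R 4.3.3; trend, quantile-normalised log2 fold enrichment, Benjamini-Hochberg over 38281 regions), which leaves out regions missing from a library. Other steps used Python 3.11.15, numpy 2.4.6, pandas 2.3.3, scipy 1.17.1, pysam 0.24.0 and matplotlib 3.10.9. Merging, IDR and limma were tested on simulated data.

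For each gene, the text names its start-site regions, the 2 other regions with the highest mean percentile among those called in all 4 libraries and not over a neighbouring gene's start, limma calls, unique OCRs, regions called in 1 genotype only and, over all genes, the 5 largest differences. The genes and lists were chosen with earlier results of these data known. Alternatives were other peak thresholds, windows, merging, IDR settings, normalisations, a replicate block and leaving out each library. Further limma fits used log2 −log10 p in place of log2 fold enrichment, or no mean-variance trend.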

Additional observations from a re-analysis of the deposited data

How the results depend on the processing

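Of the 75 regions, 40 remained with gene bodies only, of which 23 were called in all 4 libraries, with 18 common, 2 WT-unique and 2 Il2ramut/mut-unique OCRs. Leaving out each library in turn gave 71 to 75 regions and 39 to 46 called in all the libraries kept. Without the IDR step there were 8 WT-unique and 9 Il2ramut/mut-unique OCRs. The counts of common and unique OCRs stayed within 1.5 times under an IDR of at most 0.01, ranking by fold enrichment, stricter peaks, lists of equal length and 10 kb flanks. Regions with both Il2ramut/mut percentiles above both WT numbered 10, and 15 of 34 with a −log10 q of at least 3 (44.1% of all regions), 6 with equal lists, 6 of 23 with gene bodies only and 2 by fold enrichment. The opposite, 1 region, became 0 with a −log10 q of at least 3 (5.21% of all regions), 3 with equal lists, 0 with gene bodies only and 3 by fold enrichment. Leaving out 1 library gave 15 to 28 and 4 to 12 regions, beside 35.7% to 49.02% and 22.1% to 33.6% of all regions. Genome-wide limma calls went from 0 to 14 without normalisation and to 311 with median centring, and the cause was not tested. In both of these fits, and in no other, each SE came from the trend over all regions alone. None of the other limma fits called a region, nor did any fit call an NF-kB region. The fits without a library leave 1 sample in a group, which is assumed to vary like the other group. With a replicate block limma called 0 regions, with 2834 at an unadjusted p under 0.05 against 3274. Differences between replicates 1 and 2 correlated between the genotypes with r of 0.01 over regions after quantile normalisation. That step removes shifts of a whole library, so r cannot decide whether libraries of the same number were prepared together. The lists hold no totals, so a region without a peak may lie below the caller's threshold at that library's depth.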
